A study of Mus musculus with 24 samples.

Results

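Gene expression in intrahepatic cholangiocytes, the epithelial cells that line the bile ducts inside the liver, was compared between untreated male dnTGFB mice and untreated male wild-type (WT) mice. The comparison took the male libraries without secretin, 3 of WT and 3 of dnTGFB mice, as the titles and the series' design text name them, which makes 6 of the 24 libraries of the series. dnTGFB mice carry a dominant-negative form of the TGF-β type II receptor and are used as a model of primary biliary cholangitis. The other male groups, which received secretin, entered only the estimate of the spread. The labels give an age of 32 weeks for WT. They give none for dnTGFB mice without secretin, so genotype and age cannot be told apart. An antibody coupled to magnetic beads isolated the cells, and libraries were made by poly(A) selection from 500 ng of RNA. Per the labels' protocols, cells of 6 to 8 mice were pooled per group and the RNA of the 1 pool was sequenced in triplicate. On that account each p-value here reflects only how libraries of the same pool varied, and no mouse-to-mouse variation. The counts of WT 1 and dnTGFB 3 differed from the other libraries of their groups by more than repeat sequencing gives, which that account does not describe. The genotype field of the 3 dnTGFB libraries reads wild-type, against their titles, and the groups were taken from the titles and the design text.

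As background, the dnTGFB transgene is driven by a CD4 promoter and is active in T cells, whose response to TGF-β it blocks. TGF-β holds T cells in check, and in this strain T cells become activated, collect around the portal bile ducts and damage them, with antibodies against mitochondrial enzymes as in the human disease. Cholangiocytes express keratins of simple epithelia and the adhesion molecule EpCAM, seal the duct with claudins and other junction proteins, and answer the hormone secretin by secreting bicarbonate. The bead-captured fraction can also hold endothelium, Kupffer cells, platelets, lymphocytes and hepatocyte RNA, so markers of these cells are given beside the bile duct genes.

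Levels are given in CPM, the read count of a gene scaled by the TMM-adjusted total of its library, and sets of 3 values are in the order of libraries 1, 2 and 3. WT 1, 2 and 3 held 30203330, 20582062 and 21976387 counts, dnTGFB 1 and 2 held 15225605 and 19003320, and dnTGFB 3 held 1429218. WT 2 and WT 3 differed by a chi-square of 1.14 per gene and dnTGFB 1 and 2 by 1.4, where 1 is the noise of repeat sequencing. They were kept as separate libraries, although values this near 1 are what repeats of 1 pool give. Small SEs and p-values without WT 1 and dnTGFB 3 reflect how close such repeats lie, and no mouse-to-mouse variation. WT 1 lay at 40.72 and 40.63 from WT 2 and 3 but at 7.74 and 7.28 from dnTGFB 1 and 2, and dnTGFB 3 lay between 51.98 and 79.9 from every other library. With mitochondrially encoded genes left out, WT 1 lay at 16.47 and 16.49 from WT 2 and 3 and at 5.81 and 5.36 from dnTGFB 1 and 2. On that measure dnTGFB 3 lay between 47.65 and 52.07 from every other library. Mitochondrially encoded genes held 42.75% of the counts in WT 1 against 9.73% and 9.75% in WT 2 and 3, and 55.07% and 55.03% in dnTGFB 1 and 2 against 11.44% in dnTGFB 3. Over 6982 genes outside the mitochondrial genome that differed at least 2-fold between WT 2 and 3 and dnTGFB 1 and 2, WT 1 lay between the pairs in 97.11%, at a median of 0.72 of the way from WT to dnTGFB and with quartiles of 0.66 and 0.79 (CPM of library totals, at least 10 CPM in the higher pair). Those totals include the mitochondrially encoded counts, so a library's mitochondrial share shifts all its other genes on this scale. The median of 0.72 therefore restates that share in part. This position depended on the scale. Over the 2729 genes that differed by at least 1 in log2 of TMM-scaled CPM plus 1, the median was 0.45. The quartiles were 0.15 and 0.72, and 45.1% of these genes were nearer dnTGFB. Gene lists, and many of the genes named, are therefore given with all 6 libraries and again without WT 1 and dnTGFB 3. The latter is called the 2-against-2 comparison.

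The labelled cell type was checked with defining markers, compared per kilobase of exon because genes differ in length. Defining bile duct markers, among them Krt19, Krt7, Epcam and Sox9, were present in all 6 libraries, with a mean of 35.4, 56.79 and 58.64 CPM per kilobase in WT and 19.07, 20.6 and 10.57 in dnTGFB. Hepatocyte markers stood higher in every library, at 1072, 225.7 and 222.8 CPM per kilobase in WT and 1804, 1703 and 255.5 in dnTGFB. Endothelial markers stood at 79.16, 96.47 and 96.37 in WT and 63.73, 64.62 and 14.2 CPM per kilobase in dnTGFB, also above the bile duct markers throughout. Heart muscle markers reached 695.2 CPM per kilobase in dnTGFB 3 and neuronal markers 149.9, against at most 52.21 and 21.78 in the other 5 libraries. The libraries thus held bile duct transcripts together with those of several other cell types, in amounts that differed among libraries of the same group.

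**Figure D1:**
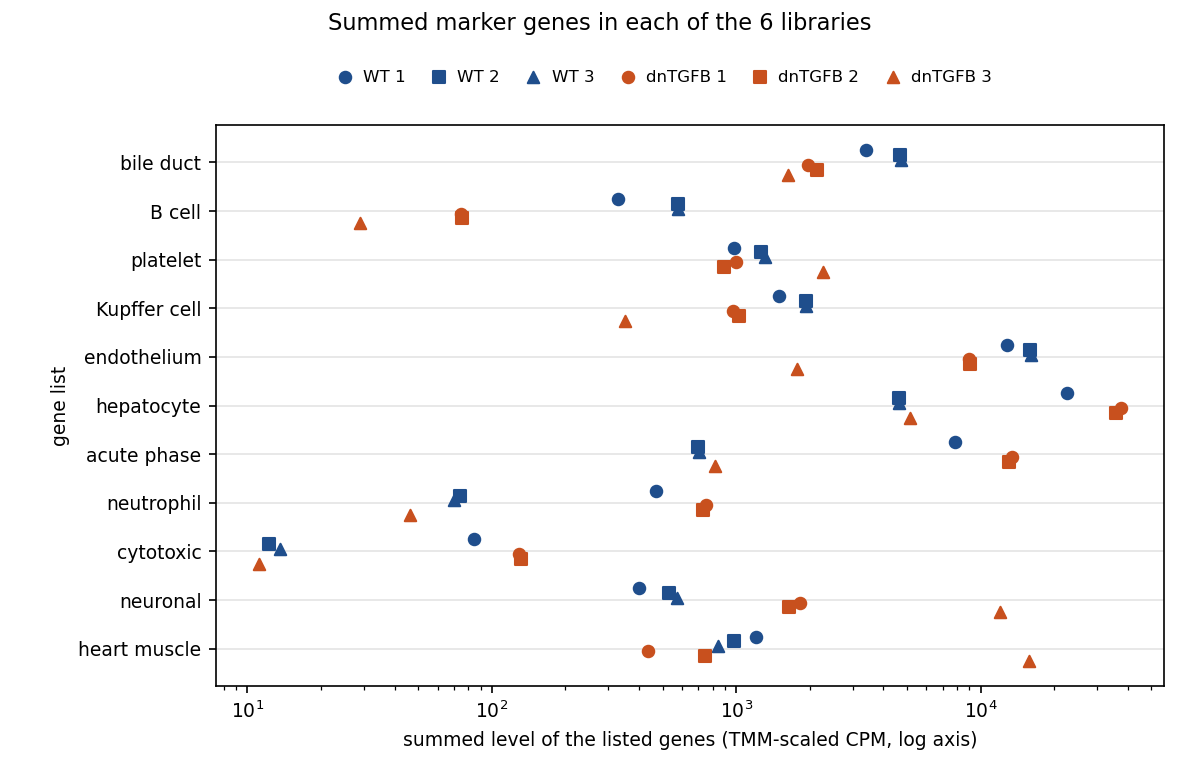
Summed TMM-scaled CPM (log axis) of the genes of 11 lists in each of the 6 libraries, with WT in blue, dnTGFB in orange and circles, squares and triangles for libraries 1, 2 and 3. Bile duct, B cell, Kupffer cell and endothelial sums are lower in all 3 dnTGFB libraries, hepatocyte, acute-phase, neutrophil and cytotoxic sums are high in WT 1 and dnTGFB 1 and 2, and the heart muscle sum stands out in dnTGFB 3.

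Tgfbr2, whose altered form defines the strain, encodes the type II receptor that binds TGF-β (chr9:116084293-116175360, minus strand, GRCm38). It stood at 130.3, 138 and 138 CPM in WT and 123, 126 and 37 CPM in dnTGFB. dnTGFB 3 was the lowest library and the other 5 lay close together. The log2 fold change, dnTGFB minus WT, was −0.49 ± 0.33 (SE) with an adjusted p of 0.318, and −0.15 ± 0.06 with an adjusted p of 0.0367 in the 2-against-2 comparison. The counts do not separate the transgene from the endogenous gene, and the transgene is a T cell construct, so this value does not check the genotype.

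Of 18777 genes tested by edgeR's quasi-likelihood test, 3195 (17.0%) passed an adjusted p of 0.05 with all libraries, 1606 (8.55%) higher and 1589 (8.46%) lower in dnTGFB. Without WT 1 and dnTGFB 3, 9084 genes (48.4%) passed, 4294 (22.9%) higher and 4790 (25.5%) lower. Among the genes lower in dnTGFB, 1573 of 1589 (99.0%, and 8.38% of all genes) passed in the same direction in both comparisons, as did 1513 of 1606 (94.2%, and 8.06% of all genes) among the higher genes, and 0 genes passed in opposite directions. Of the genes called higher with all libraries, 1421 (88.5%) had the highest of their 3 dnTGFB values in dnTGFB 3. The same share over all tested genes was not counted. The 3 dnTGFB libraries lay above the 3 WT libraries in 2399 genes (12.8%) and below them in 3737 (19.9%).

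The spread behind these tests came from the 12 male libraries. With only the 6 libraries of the comparison in the edgeR fit, 0 genes passed, 3092 had an unadjusted p under 0.05, and the smallest adjusted p was 0.128, while DESeq2 called 4986 genes and limma-voom with library weights 6910 on all 12. Leaving out WT 2 or WT 3 left 1274 and 1250 genes, and leaving out dnTGFB 3 gave 6653. Scaling to library totals in place of TMM moved the median log2 fold change of all genes from 0.01 to −0.44, and then 5223 genes passed, 1011 higher and 4212 lower, so directions are relative to the bulk of genes. Among the increases named here, those of Acvr1b, Acaca, Acacb, Bckdhb, Cldn12, Dgat2, Egf, Eomes, Hspb8, Il34, Lhx2, Nrgn, Pgam1, Plcl2, Slpi, Sst and Tox did not pass with library totals, nor did the fall of Ormdl3.

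**Figure D2:**
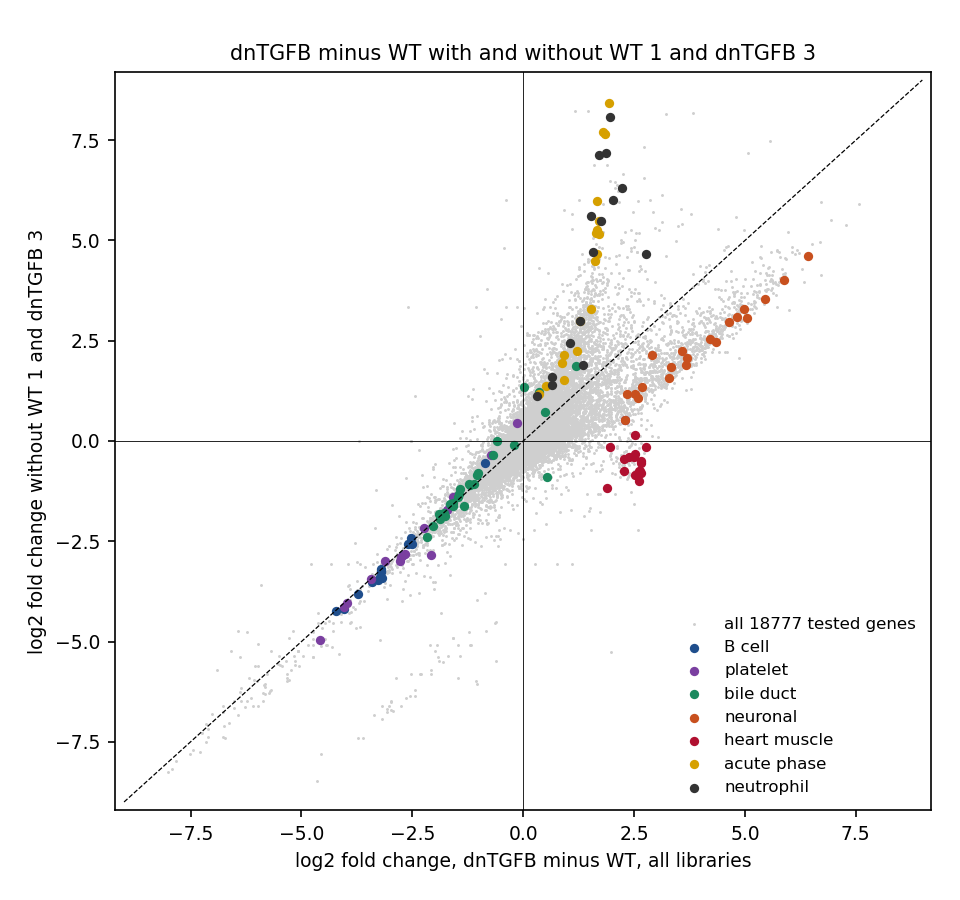
Log2 fold change of dnTGFB minus WT with all libraries (x axis) against that without WT 1 and dnTGFB 3 (y axis) for all 18777 tested genes in grey and the members of 7 lists in colour, with equality dashed. B cell genes and most platelet and bile duct genes lie near the diagonal below 0, neuronal genes are above 0 on both axes, acute-phase and neutrophil genes lie above the diagonal, and the 16 heart muscle genes are positive on the x axis and lie near or below 0 on the y axis.

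Bile duct epithelial genes were lower in dnTGFB. Of 26 bile duct markers, 18 fell and 0 rose with all libraries, where 8.46% of all genes fell and 8.55% rose. In the 2-against-2 comparison 20 fell and 3 rose (Onecut1, Pigr and Sctr), where 25.5% and 22.9% of all genes did so. The median log2 fold change of the list was −1.28 and −1.15 in the 2 comparisons, against 0.01 and −0.04 over all genes. In 19 of the 26 genes all 3 dnTGFB libraries lay below all 3 WT libraries (19.9% of all genes). In bulk RNA, fewer cells of a type and less RNA per cell cannot be told apart. The summed level of the list was 3384, 4667 and 4717 CPM in WT and 1976, 2139 and 1636 CPM in dnTGFB. Hepatocyte markers summed to 22550, 4657 and 4619 CPM in WT and 37510, 35810 and 5132 CPM in dnTGFB. In dnTGFB 3 the heart muscle and neuronal lists summed to 15840 and 12020 CPM, each the highest of the 6 libraries. The part of hepatocyte, heart muscle or neuronal RNA in the fall of bile duct genes was not tested.

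Krt19, the keratin that marks the biliary lineage, stood at 155, 258 and 273 CPM in WT and 85.2, 96.3 and 45.8 CPM in dnTGFB, which is 229 ± 64.4 CPM in WT and 75.8 ± 26.5 CPM in dnTGFB (SD, n = 3). The groups did not overlap, WT 1 was the lowest WT library, and the change was −1.58 ± 0.28 on the log2 scale with an adjusted p of 0.00587. Epcam, the epithelial adhesion molecule, stood at 120.1, 191 and 199 CPM in WT and 56.9, 55.6 and 34.1 CPM in dnTGFB, a log2 fold change of −1.78 ± 0.24 with an adjusted p of 0.00346. The same order of libraries held for Spp1, the secreted phosphoprotein osteopontin and the most abundant gene of the list by CPM, at 1337, 2125 and 2128 CPM in WT and 556, 551 and 419 CPM in dnTGFB. Its log2 fold change was −1.87 ± 0.25 (adjusted p 0.00352) and −1.94 ± 0.02 without WT 1 and dnTGFB 3.

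The largest falls in the list were those of Anxa13, an epithelial annexin (−2.16 ± 0.23, adjusted p 0.0015), of Cldn7, a claudin of the lateral membrane (−2.04 ± 0.24, adjusted p 0.00211), and of Elf3, an epithelial transcription factor (−1.90 ± 0.28, adjusted p 0.00407). Anxa13 ran at 40.4, 76.3 and 76.3 CPM in WT and 13.6, 15.3 and 14.1 CPM in dnTGFB, and Elf3 at 119.6, 177 and 188 CPM in WT and 41.9, 60 and 25.2 CPM in dnTGFB. Sox9, a transcription factor that sets biliary identity, fell by 1.10 on the log2 scale (adjusted p 0.00637). Pkhd1, which encodes the ciliary protein fibrocystin, fell by 1.43 (adjusted p 0.0185).

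Not all bile duct genes followed. Pigr, the receptor that carries IgA into bile, stood at 445, 219 and 222 CPM in WT and 466, 562 and 95.7 CPM in dnTGFB, with WT 1 and dnTGFB 1 and 2 high and dnTGFB 3 lowest (0.35 ± 0.50, adjusted p 0.651; 1.22 ± 0.06, adjusted p 6.02e-11 with 2 libraries against 2). The secretin receptor gene Sctr was at 4.22, 0.639 and 0.886 CPM in WT and 1.73, 2.13 and 1.76 CPM in dnTGFB (0.01 ± 0.63, adjusted p 0.996), and its ligand gene Sct at 0.281, 0.468 and 0.322 CPM in WT and 0.692, 1.67 and 0.587 CPM in dnTGFB (1.58 ± 0.51, adjusted p 0.057). Sct rested on 1 to 18 counts a library, and Sctr was highest in WT 1. The limit that a count of 0 allows, taken as 3 counts and covering counting error only, is 1.77 CPM in dnTGFB 3. Cftr, the chloride channel that secretin opens, stood at 6.05, 3.36 and 3.79 CPM in WT and 3.69, 3.52 and 0 CPM in dnTGFB (−0.58 ± 0.46, adjusted p 0.389), and in dnTGFB 3 it was not detectable at this depth. Of 25 genes of the secretin and bicarbonate pathway, 1 rose and 2 fell, both under the share of all genes (8.55% and 8.46%), while DESeq2 called 8 higher and 3 lower. The gene that rose was Sst, which encodes somatostatin, an inhibitor of ductal secretion (2.52 ± 0.77, adjusted p 0.0447), with the high value of 65.2 CPM in dnTGFB 3 and 0.67 ± 0.30 (adjusted p 0.0704) without it and WT 1. Those that fell were Adcy6, an adenylyl cyclase that makes cyclic AMP (−0.67 ± 0.13, adjusted p 0.00735) and Creb1, a transcription factor that answers cyclic AMP (−0.53 ± 0.15, adjusted p 0.0347). In the 2-against-2 comparison 3 of the 25 genes rose and 7 fell (22.9% and 25.5% of all genes).

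Genes of the epithelial seal fell alongside. Of 20 tight junction genes 14 fell and 1 rose (8.46% and 8.55% of all genes), with a median log2 fold change of −1.11, and the 2-against-2 comparison gave 16 and 2 (25.5% and 22.9% of all genes), with a median of −1.0. The claudin genes Cldn8 (−2.40 ± 0.32), Cldn23 (−2.20 ± 0.42) and Cldn6 (−2.16 ± 0.35) changed most, with adjusted p of 0.00346, 0.00723 and 0.00474. Cldn4, the most abundant claudin of this list by CPM, stood at 184, 279.8 and 285 CPM in WT and 129.5, 142 and 44 CPM in dnTGFB (−1.23 ± 0.35, adjusted p 0.0343), and F11r, which encodes the junctional adhesion molecule JAM-A, at 224, 279 and 284 CPM in WT and 164, 171 and 65.8 CPM in dnTGFB (−0.97 ± 0.29, adjusted p 0.045). Tjp1, a junction scaffold, did not pass (−0.72 ± 0.26, adjusted p 0.0753), and the 1 gene that rose was Cldn12 (0.53 ± 0.12, adjusted p 0.0142). The dnTGFB values of Cldn12, 34.7, 31 and 28.2 CPM, were all above those of WT, 21.2, 22.9 and 21.3 CPM.

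Among 17 adhesion and desmosome genes, 6 fell and 0 rose (median −0.57; 8.46% and 8.55% of all genes). In the 2-against-2 comparison 12 fell and 1 rose (median −0.58; 25.5% and 22.9% of all genes). Cdh1, epithelial cadherin, stood at 181, 278 and 284 CPM in WT and 113, 125 and 58.1 CPM in dnTGFB (−1.32 ± 0.27, adjusted p 0.00939). The desmosomal cadherin gene Dsg2 ran at 112, 133 and 144 CPM in WT and 55, 57.4 and 47.6 CPM in dnTGFB (−1.28 ± 0.15, adjusted p 0.00209), with each group tight and dnTGFB 3 close to dnTGFB 1 and 2. Nectin4, an epithelial nectin, had a log2 fold change of −1.97 ± 0.25 with an adjusted p of 0.00291. Of 18 laminin and basement membrane genes 3 fell and 0 rose (8.46% and 8.55% of all genes). Among them were the laminin chain genes Lama4 (−1.19 ± 0.23, adjusted p 0.00751) and Lamb3 (−0.76 ± 0.22, adjusted p 0.0375). The 2-against-2 comparison gave 6 that fell and 5 that rose among these 18 genes (25.5% and 22.9% of all genes).

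Mucosal genes split. Of 18 mucin and mucosal defence genes 4 fell and 2 rose with all libraries (8.46% and 8.55% of all genes). The membrane mucin gene Muc1 stood at 70.4, 116 and 112 CPM in WT and 30.9, 38.6 and 21.7 CPM in dnTGFB (−1.69 ± 0.23, adjusted p 0.00385), and the trefoil factor gene Tff2 at 13.4, 16.4 and 16.9 CPM in WT and 5.08, 4.08 and 4.7 CPM in dnTGFB (−1.76 ± 0.17, adjusted p 0.000992). Wfdc2, a secreted protease inhibitor, fell with a log2 fold change of −1.76 ± 0.25 (adjusted p 0.00385), and so did Agr2, a disulfide isomerase needed for mucin folding (−2.85 ± 0.84, adjusted p 0.0397), at 1.22, 1.06 and 1.89 CPM in WT and 0.346, 0.0926 and 0 CPM in dnTGFB. In the other direction went Slpi, an antiprotease of mucosal surfaces, at 32.4, 21.1 and 20.2 CPM in WT and 45.2, 43.7 and 65.2 CPM in dnTGFB (1.05 ± 0.22, adjusted p 0.0106), and Spink1, a trypsin inhibitor (2.37 ± 0.67, adjusted p 0.035). For Slpi the groups did not overlap and the 2-against-2 value was 1.11 ± 0.06. In the 2-against-2 comparison 11 of the 18 rose and 4 fell (22.9% and 25.5% of all genes).

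In the EGF family, 6 of 17 genes fell and 1 rose (8.46% and 8.55% of all genes). Among ligands, Hbegf, the heparin-binding EGF-like factor, stood at 259, 382 and 390.1 CPM in WT and 179, 167 and 51.7 CPM in dnTGFB (−1.37 ± 0.37, adjusted p 0.0286), and Nrg1, a neuregulin, fell by 0.61 on the log2 scale (adjusted p 0.0311). Egf itself was the gene that rose, at 4.64, 3.28 and 2.06 CPM in WT and 4.96, 8.71 and 8.81 CPM in dnTGFB (1.15 ± 0.34, adjusted p 0.0406). Ereg, epiregulin, ran at 17.7, 1.87 and 1.93 CPM in WT and 27.4, 30.9 and 1.18 CPM in dnTGFB, high in WT 1 and in dnTGFB 1 and 2, and passed only without WT 1 and dnTGFB 3 (3.93 ± 0.27, adjusted p 8.49e-11, against 1.56 ± 0.91, adjusted p 0.244). Among receptors Erbb2 (−1.24 ± 0.25, adjusted p 0.00871), Erbb4 (−1.60 ± 0.34, adjusted p 0.0105), Fgfr3 (−1.32 ± 0.30, adjusted p 0.0147) and the HGF receptor Met (−0.65 ± 0.15, adjusted p 0.014) fell. In the 2-against-2 comparison 7 of the 17 genes fell and 6 rose (25.5% and 22.9% of all genes).

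B cell genes had the largest median fall among the cell type lists. Of 16 markers listed 15 were matched by symbol, all 15 were tested, and 14 of them fell with all libraries (8.46% of all genes fell), all 15 fell in the 2-against-2 comparison (25.5% of all genes), and in all 15 the groups did not overlap (19.9% of all genes). The median log2 fold change was −3.20 and −3.26. The gene that did not pass with all libraries was Ebf1, a B lineage transcription factor (−0.87 ± 0.28, adjusted p 0.0544). Summed over the list, B cell genes stood at 328, 576 and 580.4 CPM in WT and 75, 75.6 and 28.8 CPM in dnTGFB.

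Cd79a and Cd79b encode the signalling chains of the B cell receptor. Cd79a (chr7:24897381-24902197, plus strand) stood at 51.2, 95.2 and 97.1 CPM in WT and 7.27, 3.24 and 0.587 CPM in dnTGFB, 81.2 ± 26 CPM in WT and 3.7 ± 3.37 CPM in dnTGFB (SD, n = 3). The lowest WT library, WT 1, was above the highest dnTGFB library, and the log2 fold change was −4.21 ± 0.44 with an adjusted p of 0.0015, and −4.24 ± 0.17 in the 2-against-2 comparison. Cd79b (chr11:106311341-106314762, minus strand) ran at 22.8, 40.2 and 45.3 CPM in WT and 2.88, 1.85 and 1.18 CPM in dnTGFB (−4.05 ± 0.34, adjusted p 0.000715). Ms4a1, which encodes CD20 (chr19:11249675-11266241, minus strand), stood at 15.8, 29.3 and 28.4 CPM in WT and 2.88, 2.22 and 1.18 CPM in dnTGFB (−3.40 ± 0.34, adjusted p 0.00145). WT 1 lay below WT 2 and 3 in each of these genes and dnTGFB 3 was lowest of all, with 1 count of Cd79a and 2 each of Cd79b and Ms4a1.

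Regulators of the B cell fell with them. Spib, an ETS factor of B cells (chr7:44525993-44532071, minus strand), stood at 14, 26.2 and 24.4 CPM in WT and 1.85, 1.76 and 0.587 CPM in dnTGFB (−3.73 ± 0.35, adjusted p 0.000992). Cd22, an inhibitory coreceptor (chr7:30865402-30880342, minus strand), ran at 18, 36.7 and 34.6 CPM in WT and 2.88, 3.52 and 2.35 CPM in dnTGFB (−3.28 ± 0.32, adjusted p 0.00135). Blk, a kinase of the receptor pathway, and Fcrla, an intracellular Fc receptor-like protein, complete the B cell genes among the 10 largest falls, at −3.24 ± 0.36 and −3.20 ± 0.35 (adjusted p 0.00199 and 0.00199). Cd37, a tetraspanin, stood at 39, 74.7 and 75.9 CPM in WT and 10.4, 14.6 and 6.46 CPM in dnTGFB (−2.51 ± 0.29, adjusted p 0.00209). Pou2af1, the octamer-factor coactivator, fell by 3.19 on the log2 scale (adjusted p 0.00237).

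Promoters of 3 of the B cell genes with the largest falls are shown because these genes moved together, as the 250 bases before the transcription start of the RefSeq table (RefSeq sequence, GRCm38, 5′ to 3′ on the gene's strand, from chr7:24897247-24897496 on the plus strand and from chr7:30879029-30879278 and chr7:44532072-44532321 on the minus strand). The RefSeq start used for Cd79a and Cd22 lies inside the GENCODE gene bounds given for them, so these windows lie in part (Cd79a) or whole (Cd22) within those bounds. Capitals mark a match to an EBF motif, TCCC and GGGA spaced by 2 bases, present in Cd22 alone among them.
Cd79a: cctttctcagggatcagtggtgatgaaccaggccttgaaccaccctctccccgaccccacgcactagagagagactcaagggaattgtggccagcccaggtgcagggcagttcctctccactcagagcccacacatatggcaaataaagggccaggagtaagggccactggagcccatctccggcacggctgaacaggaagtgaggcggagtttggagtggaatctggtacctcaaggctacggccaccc
Cd22: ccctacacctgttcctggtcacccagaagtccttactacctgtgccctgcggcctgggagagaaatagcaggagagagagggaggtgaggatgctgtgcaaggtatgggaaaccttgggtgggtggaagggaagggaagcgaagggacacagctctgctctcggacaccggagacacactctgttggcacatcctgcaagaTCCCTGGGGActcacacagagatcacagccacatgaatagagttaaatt
Spib: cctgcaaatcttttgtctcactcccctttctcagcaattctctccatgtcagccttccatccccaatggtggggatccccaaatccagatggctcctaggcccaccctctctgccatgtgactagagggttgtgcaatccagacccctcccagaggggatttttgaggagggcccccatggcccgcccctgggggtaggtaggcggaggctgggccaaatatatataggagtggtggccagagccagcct
A promoter sequence was matched for 11 of the 15 B cell genes. Over both strands of the same window, 1 of the 11 held the EBF motif, against 0.914% of 27025 genes, 0 held the octamer ATTTGCAT, against 1.81%, and 1, Cd37, held the PU.1 motif GAGGAAGT, against 2.79%. These are letter matches in a short window and describe no binding. GC content was 58.8% in the Cd79a window, 55.2% in Cd22 and 58.0% in Spib, against a median of 52.4% over all genes.

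Antibody-producing cells followed in part. Of 8 plasma cell markers 3 fell and 0 rose (median −1.0; 8.46% and 8.55% of all genes). The 2-against-2 comparison gave 4 and 1 (median −0.71; 25.5% and 22.9% of all genes). Jchain, the joining chain of secreted IgA and IgM, stood at 122, 183 and 189.5 CPM in WT and 53.9, 56.9 and 47.6 CPM in dnTGFB (−1.64 ± 0.19, adjusted p 0.00209), and Mzb1, a chaperone of antibody assembly, had a log2 fold change of −2.65 ± 0.29 with an adjusted p of 0.00175. The summed level of 164 tested immunoglobulin gene segments was 1706, 2679 and 2749 CPM in WT and 742.9, 718.4 and 792.3 CPM in dnTGFB. With all libraries 38 of the segments fell and 4 rose (8.46% and 8.55% of all genes). The 2-against-2 comparison gave 54 and 12 (25.5% and 22.9% of all genes). In the summed level of the segments dnTGFB 3 did not stand apart from dnTGFB 1 and 2.

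Genes of antigen presentation by MHC class II fell in part. Of 12 genes 6 fell and 0 rose with all libraries (8.46% and 8.55% of all genes), and 10 and 0 without WT 1 and dnTGFB 3 (25.5% and 22.9% of all genes). The largest changes were in H2-Oa (−3.18 ± 0.48, adjusted p 0.00436) and H2-Ob (−3.04 ± 0.32, adjusted p 0.0015), which encode a modulator of class II loading that is best known from B cells, and in H2-Eb2, a class II beta chain (−3.11 ± 0.45, adjusted p 0.00411). H2-Ob stood at 31.1, 53.1 and 52.5 CPM in WT and 7.62, 5.1 and 2.35 CPM in dnTGFB. The invariant chain gene Cd74, made by all antigen-presenting cells, stood at 664, 799 and 812 CPM in WT and 531, 531 and 132 CPM in dnTGFB and had a log2 fold change of −0.93 ± 0.41 (adjusted p 0.136), and H2-Ab1 one of −0.85 ± 0.38 (adjusted p 0.144). In both of them dnTGFB 3 was far below the other 5 libraries. H2 genes are close relatives, and reads shared among them may have been split.

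Platelet genes were the other set with large falls. Of 16 platelet and megakaryocyte genes 12 fell and 1 rose (8.46% and 8.55% of all genes), with a median of −2.45, and 14 fell and 1 rose in the 2-against-2 comparison (25.5% and 22.9% of all genes), with a median of −2.83. Tubb1, the platelet tubulin (chr2:174450695-174457882, plus strand), stood at 6.19, 15.7 and 17 CPM in WT and 0.808, 0.278 and 0.587 CPM in dnTGFB (−4.59 ± 0.64, adjusted p 0.00385). Ppbp, a chemokine of platelet granules (chr5:90768518-90770063, plus strand), ran at 60, 100.1 and 106 CPM in WT and 8.31, 4.45 and 2.94 CPM in dnTGFB (−3.97 ± 0.42, adjusted p 0.00156), and Pf4, a platelet alpha-granule chemokine, at 28.9, 50.9 and 49.9 CPM in WT and 7.27, 6.49 and 4.7 CPM in dnTGFB (−2.75 ± 0.26, adjusted p 0.000992). In Tubb1, Ppbp and Pf4 all 3 dnTGFB libraries lay below WT 1, and WT 1 lay below WT 2 and 3. Treml1 (−3.44 ± 0.55, adjusted p 0.00474) and Gp5, a chain of the von Willebrand factor receptor (−4.04 ± 0.62, adjusted p 0.00443), fell as well. No gene of this list rose in both. With all libraries the gene that rose was Nrgn, at 124, 216 and 226 CPM in WT and 378, 260.4 and 2138 CPM in dnTGFB (2.29 ± 0.65, adjusted p 0.0354). Nrgn, neurogranin, is also on the neuronal list and its highest value was in dnTGFB 3. Without WT 1 and dnTGFB 3 its value was 0.53 ± 0.21 (adjusted p 0.0852), and the gene that rose was Vwf, which encodes von Willebrand factor of platelets and endothelium, at 316, 276 and 283 CPM in WT and 367, 393 and 37 CPM in dnTGFB (0.44 ± 0.04, adjusted p 5.46e-09).

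Kupffer cell genes, those of the resident liver macrophage, fell in 12 of 18 and rose in 0 (median −1.16; 8.46% and 8.55% of all genes). Without WT 1 and dnTGFB 3 they fell in 16 and rose in 1 (median −1.06; 25.5% and 22.9% of all genes). Clec4f, a Kupffer cell lectin, stood at 86.4, 137 and 138 CPM in WT and 33.2, 31.7 and 16.4 CPM in dnTGFB (−2.12 ± 0.26, adjusted p 0.00238). The complement gene C1qa ran at 74.3, 111 and 112 CPM in WT and 37.6, 34.6 and 32.9 CPM in dnTGFB (−1.50 ± 0.17, adjusted p 0.00209), and Cd5l, a secreted macrophage protein, at 81, 118 and 116 CPM in WT and 41.9, 44.2 and 17 CPM in dnTGFB (−1.58 ± 0.29, adjusted p 0.0061). In C1qa the 3 dnTGFB libraries lay close together. The scavenger receptor gene Marco was the exception, at 30.9, 17 and 21.4 CPM in WT and 36.1, 41.4 and 8.81 CPM in dnTGFB (0.39 ± 0.38, adjusted p 0.499; 1.02 ± 0.11, adjusted p 3.22e-08 without WT 1 and dnTGFB 3).

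Endothelial genes showed lower values in dnTGFB, and the number that passed changed with dnTGFB 3. In 19 of 20 genes the groups did not overlap, with dnTGFB lower (19.9% of all genes). With all libraries 4 fell and 0 rose (median −1.11; 8.46% and 8.55% of all genes). Without WT 1 and dnTGFB 3, 19 fell and 1 rose (median −0.78; 25.5% and 22.9% of all genes), and leaving out dnTGFB 3 alone gave 19 that fell. Kdr, the main VEGF receptor, stood at 839, 1179 and 1202 CPM in WT and 465, 455 and 128 CPM in dnTGFB (−1.62 ± 0.39, adjusted p 0.019), and Cldn5, the endothelial claudin, at 299, 421 and 443 CPM in WT and 139, 147 and 41.1 CPM in dnTGFB (−1.82 ± 0.37, adjusted p 0.00948). Emcn, endomucin, and Gpr182, an atypical chemokine receptor of the sinusoids, were the other 2 that passed (−0.88 ± 0.19 and −1.60 ± 0.48, adjusted p 0.011 and 0.0417). Clec4g, a sinusoidal lectin and the most abundant by CPM, stood at 1206, 1461 and 1467 CPM in WT and 870.1, 859 and 159 CPM in dnTGFB (−1.13 ± 0.47, adjusted p 0.119; −0.76 ± 0.03, adjusted p 1.35e-15 without WT 1 and dnTGFB 3). The gene that rose without them was Lyve1, a hyaluronan receptor, at 252, 184 and 182 CPM in WT and 238, 279 and 37 CPM in dnTGFB (0.50 ± 0.06, adjusted p 1.41e-07).

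**Figure D3:**
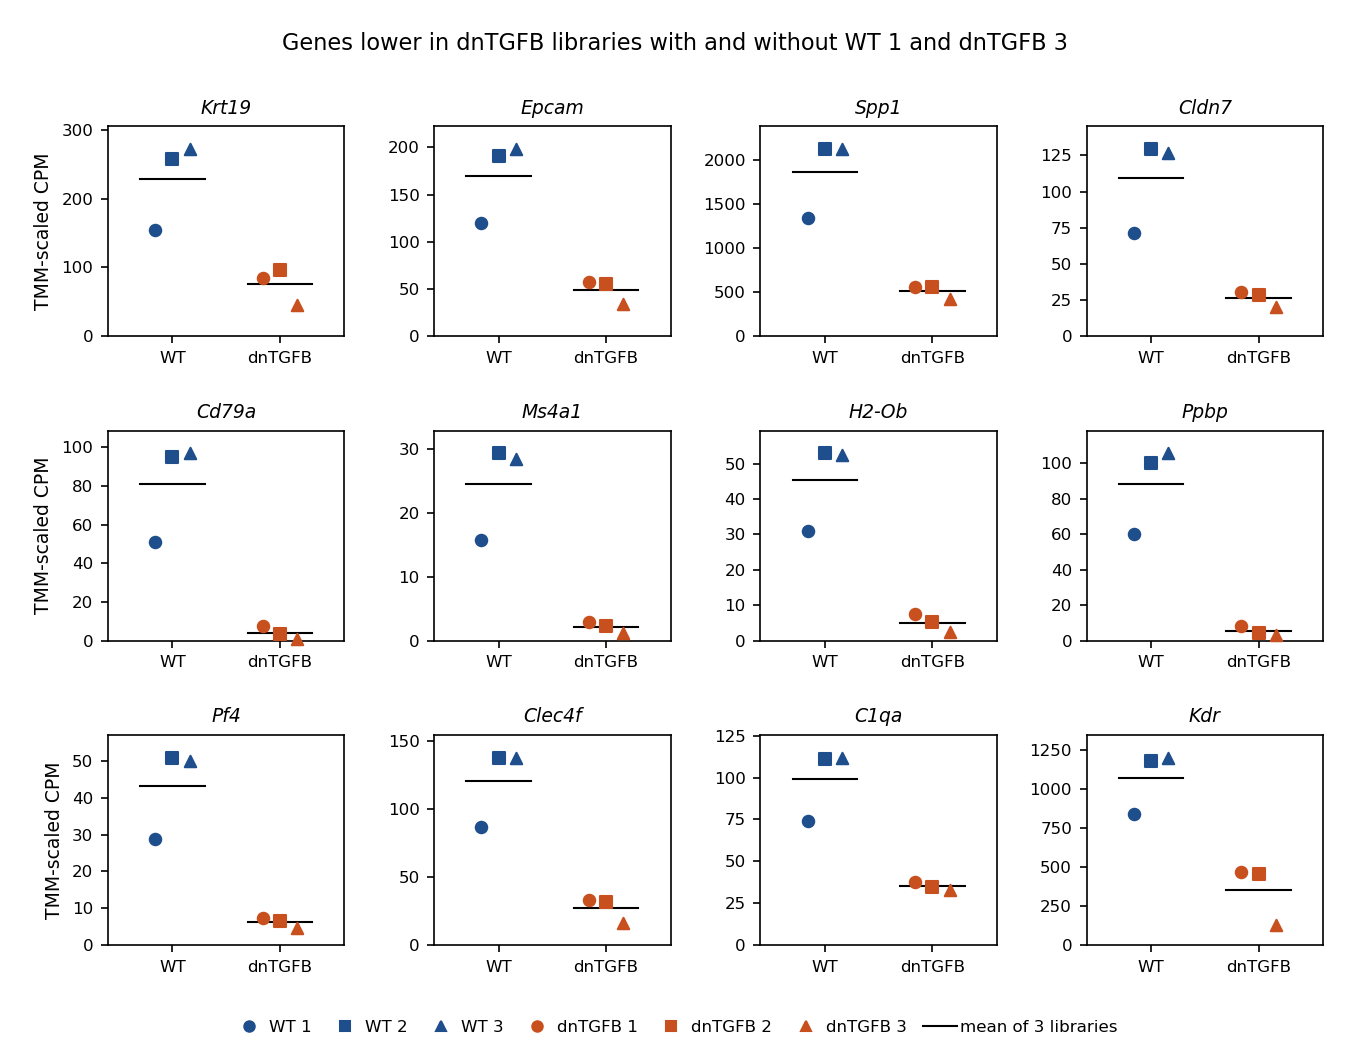
TMM-scaled CPM (linear axes from 0) of 12 genes in each library, with the mean of the 3 libraries of a group as a line. All 3 dnTGFB libraries lie below all 3 WT libraries in each panel, WT 1 is the lowest WT library, and for Cd79a the dnTGFB libraries stand at 7.27, 3.24 and 0.587 CPM.

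Neuronal genes were higher in dnTGFB. All 20 neuronal and synaptic genes rose with all libraries (8.55% of all genes rose), with a median log2 fold change of 3.69. Without WT 1 and dnTGFB 3, 19 rose (22.9% of all genes), with a median of 2.19. DESeq2 called 9 of the 20 with all libraries. The 10 largest increases by the rule for named genes were Syt6, Rph3a, Slc24a2, Galnt9, Adgrb1, Tmem121b, Scrt1, Ttbk1, Hs3st2 and Cbln2. They include Adgrb1, an adhesion receptor of the brain, Scrt1, a neural transcription factor, Ttbk1, a tau kinase, and Cbln2, a synaptic organizer. Rph3a, rabphilin, a protein of synaptic vesicles (chr5:120940499-121010092, minus strand), stood at 1.22, 0.979 and 1.21 CPM in WT and 83.4, 50.4 and 525 CPM in dnTGFB (7.57 ± 0.89, adjusted p 0.00209). Its WT values were low, dnTGFB 1 and 2 were far above them, and dnTGFB 3 was higher still. Syt6, a synaptotagmin, ran at 0.281, 0 and 0.121 CPM in WT and 5.54, 2.87 and 38.8 CPM in dnTGFB (6.71 ± 1.13, adjusted p 0.00505), and Slc24a2, a sodium-calcium exchanger of neurons, at 0.375, 0.341 and 0.242 CPM in WT and 12.3, 14.6 and 98.7 CPM in dnTGFB (6.94 ± 0.87, adjusted p 0.00291).

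Snap25, a protein of the vesicle fusion machinery, stood at 50.2, 51.4 and 64.6 CPM in WT and 352, 323 and 2403 CPM in dnTGFB (4.21 ± 0.71, adjusted p 0.00492; 2.54 ± 0.21, adjusted p 6.44e-05 without WT 1 and dnTGFB 3). The neurofilament gene Nefm ran at 1.41, 2 and 1.25 CPM in WT and 39.1, 40.9 and 332 CPM in dnTGFB (6.42 ± 0.85, adjusted p 0.00346), the vesicle protein gene Syn1 at 2.58, 2.38 and 2.82 CPM in WT and 40.2, 43.7 and 388 CPM in dnTGFB (5.88 ± 0.84, adjusted p 0.0039), and Slc17a7, the vesicular glutamate transporter of forebrain neurons, at 7.74, 8.35 and 8.7 CPM in WT and 97, 102 and 903 CPM in dnTGFB (5.46 ± 0.82, adjusted p 0.00436). In Snap25, Nefm, Syn1 and Slc17a7 the 3 dnTGFB libraries were above WT and dnTGFB 3 was far above dnTGFB 1 and 2. Measured from the WT mean, dnTGFB 1 and 2 held a median of 11.42% of the excess of dnTGFB 3 over the 20 genes, with a range of 6.70% to 22.8%. Of 12 glial genes 5 rose and 1 fell (8.55% and 8.46% of all genes). Without WT 1 and dnTGFB 3, 5 of them rose and 2 fell (22.9% and 25.5% of all genes). The list sum of the neuronal genes was 400.3, 529 and 570.5 CPM in WT and 1821, 1640 and 12020 CPM in dnTGFB. The part of dnTGFB 3's content in the all-library calls was not tested beyond leaving that library out.

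Heart muscle genes were high in dnTGFB 3 alone. Myh6, a cardiac myosin heavy chain, stood at 238, 263 and 225 CPM in WT and 107, 185 and 3216 CPM in dnTGFB (2.27 ± 1.56, adjusted p 0.322), and −0.74 ± 1.65 (adjusted p 0.75) without WT 1 and dnTGFB 3. All 16 heart muscle genes were more than 2-fold above the highest WT library in dnTGFB 3, and 0 passed (1 at an unadjusted p under 0.05 in edgeR, 1 higher and 0 lower by DESeq2, 0 higher and 0 lower by limma-voom). The summed level of the list was 1201, 983 and 839 CPM in WT and 435, 745 and 15840 CPM in dnTGFB, so dnTGFB 1 and 2 lay below all 3 WT libraries, and the median log2 fold change in the 2-against-2 comparison was −0.54. Neuronal genes, in contrast, were above WT in all 3 dnTGFB libraries. Of the 16 heart muscle genes, 0 rose and 0 fell in the 2-against-2 comparison (22.9% and 25.5% of all genes).

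Hepatocyte genes differed between the libraries of each group, and their calls rest on which libraries enter. Of 25 hepatocyte markers 0 passed with all libraries; the median log2 fold change was 1.28, and 24 rose in the 2-against-2 comparison with a median of 2.81 (22.9% of all genes rose). Of the 25 there were 3 at an unadjusted p under 0.05 in edgeR, 1 higher and 0 lower by DESeq2, 24 higher and 0 lower by limma-voom. Leaving out WT 1 alone gave 20 that rose, and leaving out dnTGFB 3 alone gave 6. Alb, albumin, stood at 8043, 1568 and 1561 CPM in WT and 13330, 12810 and 1594 CPM in dnTGFB (1.31 ± 0.76, adjusted p 0.245; 3.06 ± 0.03, adjusted p 5.45e-29). WT 1 and dnTGFB 1 and 2 were high, and dnTGFB 3 was level with WT 2 and 3. The same order held for Apoa1, the main apolipoprotein of HDL, at 1713, 255 and 246 CPM in WT and 3070, 2873 and 395 CPM in dnTGFB, and for Hpx, which binds haem in plasma, at 2114, 98.4 and 102 CPM in WT and 3640, 3766 and 151 CPM in dnTGFB. Glul, a glutamine synthetase of hepatocytes around the central vein, did not pass in either comparison, at 575, 587 and 595 CPM in WT and 576, 569.6 and 432 CPM in dnTGFB.

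Acute-phase genes, which the liver switches on in inflammation, had a larger median than the hepatocyte markers. Of 18 genes 0 passed with all libraries (median 1.64), and all 18 rose without WT 1 and dnTGFB 3 (median 4.58; 22.9% of all genes rose). With all libraries there were 1 at an unadjusted p under 0.05 in edgeR, 1 higher and 0 lower by DESeq2, 18 higher and 0 lower by limma-voom. The serum amyloid A gene Saa2 stood at 981, 5.11 and 5.72 CPM in WT and 1893, 1824 and 60.5 CPM in dnTGFB, with 1.93 ± 1.59 (adjusted p 0.409) over all libraries and 8.42 ± 0.13 (adjusted p 2.91e-11) in the 2-against-2 comparison. Its neighbour Saa1 ran at 842, 8.09 and 6.89 CPM in WT and 1509, 1509 and 42.9 CPM in dnTGFB, and the sequences are so alike that reads may be split between them. Haptoglobin, Hp, stood at 2092, 94.7 and 97.5 CPM in WT and 3531, 3469 and 174 CPM in dnTGFB (5.19 ± 0.04, adjusted p 1.47e-29 without WT 1 and dnTGFB 3), and Orm2, an orosomucoid with a near copy in Orm1, at 217, 1.41 and 2.13 CPM in WT and 389, 360.1 and 11.8 CPM in dnTGFB (7.71 ± 0.11, adjusted p 1.82e-24). In Saa2, Saa1, Hp and Orm2, WT 1 was far above WT 2 and 3 and below dnTGFB 1 and 2, and dnTGFB 3 was low.

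Complement and coagulation genes, made mostly by hepatocytes, showed the same order of libraries. Of 20 complement genes 0 rose and 1 fell with all libraries, and 18 rose and 1 fell without WT 1 and dnTGFB 3 (median 2.71; 22.9% and 25.5% of all genes). C3, the central component, stood at 2391, 407 and 424 CPM in WT and 4110, 3977 and 305 CPM in dnTGFB (3.28 ± 0.03, adjusted p 2.22e-28). The gene that fell in both was Cfp, properdin, which leukocytes make, at 29.1, 43.3 and 43.4 CPM in WT and 22.6, 21.6 and 11.8 CPM in dnTGFB (−1.0 ± 0.22, adjusted p 0.0123). Of 18 coagulation genes 0 passed with all libraries, and 17 rose and 1 fell without WT 1 and dnTGFB 3 (22.9% and 25.5% of all genes). With all libraries there were 2 at an unadjusted p under 0.05 in edgeR, 1 higher and 0 lower by DESeq2, 17 higher and 1 lower by limma-voom among the coagulation genes. Fgb, the fibrinogen beta chain, ran at 1356, 96.4 and 93.1 CPM in WT and 2380, 2346 and 188 CPM in dnTGFB (4.64 ± 0.04, adjusted p 7.04e-29).

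Neutrophil genes had the order of the acute-phase genes. Of 15 genes 0 passed with all libraries (median 1.57) and 14 rose without WT 1 and dnTGFB 3 (median 4.71; 22.9% of all genes rose). Of these 15 there were 2 at an unadjusted p under 0.05 in edgeR, 2 higher and 0 lower by DESeq2, 14 higher and 0 lower by limma-voom. The alarmin genes S100a9 and S100a8 stood at 97, 4.09 and 3.5 CPM in WT and 179.6, 159 and 5.87 CPM in dnTGFB and at 69.2, 1.75 and 2.34 CPM in WT and 104, 96.9 and 3.52 CPM in dnTGFB. Ngp, a neutrophil granule protein, ran at 30.5, 0.213 and 0.201 CPM in WT and 58.9, 55.3 and 0.587 CPM in dnTGFB (1.96 ± 1.40, adjusted p 0.339; 8.07 ± 0.23, adjusted p 2.53e-18). WT 2, WT 3 and dnTGFB 3 held few counts of Ngp, while WT 1, dnTGFB 1 and dnTGFB 2 held many. Summed over the list, neutrophil genes stood at 469, 74 and 69.8 CPM in WT and 755, 734 and 46.4 CPM in dnTGFB.

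T cells are the cells in which the transgene acts. Of 21 T cell genes 2 rose and 1 fell with all libraries (median 0.68; 8.55% and 8.46% of all genes), and 17 rose and 1 fell without WT 1 and dnTGFB 3 (median 1.64; 22.9% and 25.5% of all genes). Cd3e, a chain of the T cell receptor complex, stood at 3.57, 0.383 and 0.282 CPM in WT and 5.19, 2.59 and 0.587 CPM in dnTGFB (1.16 ± 0.89, adjusted p 0.373; 3.52 ± 0.58, adjusted p 2.23e-05). Cd8a, which marks cytotoxic T cells, ran at 4.41, 0.639 and 1.09 CPM in WT and 11.1, 13.4 and 0.587 CPM in dnTGFB (2.17 ± 0.76, adjusted p 0.0728; 3.82 ± 0.33, adjusted p 1.50e-09). Both were higher in WT 1 and in dnTGFB 1 and 2 than in the other 3 libraries. The genes that rose with all libraries were Bcl11b, a T lineage factor also active in neurons, at 2.77, 1.87 and 2.1 CPM in WT and 9.35, 8.99 and 48.8 CPM in dnTGFB (3.21 ± 0.60, adjusted p 0.00673), and the receptor constant region Trbc2, at 7.51, 1.66 and 3.83 CPM in WT and 9.58, 11.3 and 30.5 CPM in dnTGFB (1.90 ± 0.56, adjusted p 0.0395). Cd2, an adhesion receptor of lymphocytes, fell, at 10.9, 16 and 15.3 CPM in WT and 2.54, 5.19 and 0 CPM in dnTGFB (−2.16 ± 0.50, adjusted p 0.0153).

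Of 15 cytotoxic lymphocyte genes 1 rose with all libraries and 14 without WT 1 and dnTGFB 3 (medians 1.46 and 2.82), where 8.55% and 22.9% of all genes rose. Gzmb, granzyme B, stood at 20.2, 0.809 and 1.09 CPM in WT and 34.9, 36.5 and 1.18 CPM in dnTGFB (1.80 ± 1.07, adjusted p 0.256; 5.22 ± 0.24, adjusted p 1.20e-14), and Gzma, granzyme A, at 13.6, 1.79 and 0.725 CPM in WT and 19.6, 19.6 and 2.35 CPM in dnTGFB (3.96 ± 0.32, adjusted p 4.40e-10). The gene that passed with all libraries was Eomes, a T-box factor of effector cells, at 0.141, 0.341 and 0.443 CPM in WT and 0.692, 1.95 and 1.18 CPM in dnTGFB (2.05 ± 0.54, adjusted p 0.0254). Eomes rested on 2 to 21 counts a library, with 2 in dnTGFB 3. Hepatocyte sums moved with these genes across the libraries, at 22550, 4657 and 4619 CPM in WT and 37510, 35810 and 5132 CPM in dnTGFB, and their part in the result was not tested.

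**Figure D4:**
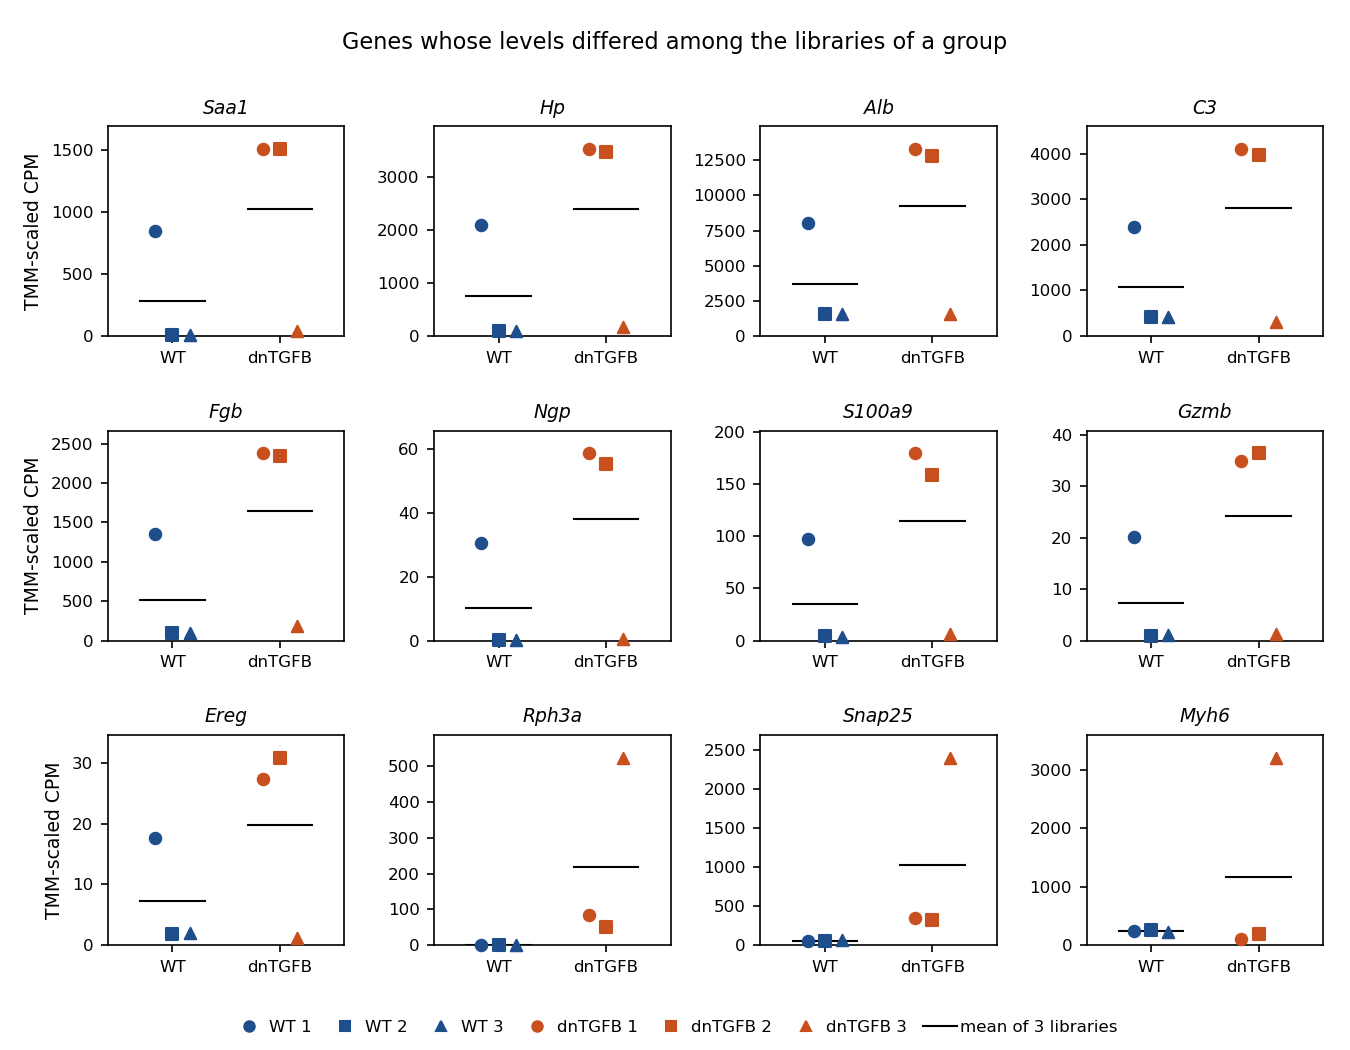
TMM-scaled CPM (linear axes from 0) of 12 genes in each library, with the mean of the 3 libraries of a group as a line. In the 9 genes from Saa1 to Ereg, WT 1 lies between WT 2 and 3 and dnTGFB 1 and 2, while dnTGFB 3 lies with WT 2 and 3. In Rph3a, Snap25 and Myh6 the highest value is that of dnTGFB 3, 525, 2403 and 3216 CPM.

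Of 33 TGF-β pathway genes 1 rose and 4 fell with all libraries (median −0.37; 8.55% and 8.46% of all genes), and 7 rose and 14 fell without WT 1 and dnTGFB 3 (median −0.19; 22.9% and 25.5% of all genes). Ltbp4, which stores latent TGF-β in the matrix, stood at 706, 1010 and 1036 CPM in WT and 469, 473 and 127 CPM in dnTGFB (−1.36 ± 0.40, adjusted p 0.0389). Itgb8, the integrin chain that releases active TGF-β, stood at 12.4, 12.8 and 12.6 CPM in WT and 7.16, 5.74 and 9.4 CPM in dnTGFB (−0.83 ± 0.18, adjusted p 0.0103). Among receptors of the family, Bmpr2 and Acvr1 fell (−0.88 ± 0.18 and −0.56 ± 0.15, adjusted p 0.00924 and 0.0263) and Acvr1b rose (0.68 ± 0.20, adjusted p 0.0379).

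Autoantigens of primary biliary cholangitis include subunits of mitochondrial dehydrogenase complexes and proteins of the nucleus. Of 17 such genes 1 rose and 0 fell with all libraries, below the share of all genes (8.55% and 8.46%). The gene that rose was Bckdhb, a subunit of the branched-chain 2-oxoacid dehydrogenase, at 28.8, 21.1 and 20.2 CPM in WT and 38.3, 48 and 47 CPM in dnTGFB (0.92 ± 0.16, adjusted p 0.00566; 1.07 ± 0.12, adjusted p 9.38e-08), with no overlap between groups. Dlat, the acetyltransferase subunit of pyruvate dehydrogenase and the main autoantigen, stood at 39.8, 39.8 and 39.4 CPM in WT and 41.8, 42.4 and 216 CPM in dnTGFB (1.29 ± 0.51, adjusted p 0.103). Its value was high in dnTGFB 3, and without WT 1 and dnTGFB 3 the log2 fold change was 0.09 ± 0.08 (adjusted p 0.403). In that comparison 2 of the 17 genes rose and 5 fell (22.9% and 25.5% of all genes).

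Of 28 tested genes at human risk loci for the disease, 2 rose and 6 fell (median −0.44; 8.55% and 8.46% of all genes). Spib and Pou2af1 are 2 of the 6 and are B cell genes, as is Cxcr5, the receptor that guides B cells to follicles (−1.84 ± 0.35, adjusted p 0.00731). Ikzf3, a lymphocyte factor (−1.64 ± 0.44, adjusted p 0.0289), Ccl20 (−2.72 ± 0.67, adjusted p 0.0192) and Ormdl3, a regulator of sphingolipid synthesis (−0.71 ± 0.16, adjusted p 0.0127), also fell. Those that rose were Il12rb2, a chain of the interleukin-12 receptor of T helper 1 cells, and Plcl2 (0.86 ± 0.23, adjusted p 0.0293). Il12rb2 stood at 0.0938, 0 and 0.0806 CPM in WT and 2.08, 2.41 and 0 CPM in dnTGFB (4.80 ± 0.95, adjusted p 0.00818; 5.59 ± 0.98, adjusted p 5.24e-05). The call rests on dnTGFB 1 and 2, since dnTGFB 3 had no count, which allows up to 1.77 CPM. In the 2-against-2 comparison 6 of the 28 genes rose and 11 fell (median −0.29; 22.9% and 25.5% of all genes).

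Interferon-response genes did not pass with all libraries. Of 26 type I genes 0 rose and 0 fell (median −0.17), and of 28 interferon-γ genes 0 rose and 0 fell (median 0.18; −0.41 with library totals). The type I genes had 2 at an unadjusted p under 0.05 in edgeR, 0 higher and 0 lower by DESeq2, 10 higher and 3 lower by limma-voom. The interferon-γ genes had 1 at an unadjusted p under 0.05 in edgeR, 1 higher and 0 lower by DESeq2, 14 higher and 1 lower by limma-voom. Without WT 1 and dnTGFB 3, 15 and 18 rose and 3 and 3 fell (22.9% and 25.5% of all genes). Gbp2, a guanylate-binding protein induced by interferon-γ, stood at 116, 50 and 55.8 CPM in WT and 177, 181 and 27.6 CPM in dnTGFB (1.76 ± 0.07, adjusted p 7.57e-16 in the 2-against-2 comparison), while Cxcl10, the T cell chemokine, stood at 1348, 1583 and 1564 CPM in WT and 1050, 1083 and 200.3 CPM in dnTGFB (−0.56 ± 0.03, adjusted p 1.14e-12). Irf1, a transcription factor of this response, ran at 2146, 2428 and 2464 CPM in WT and 1846, 1899 and 282 CPM in dnTGFB and in the 2-against-2 comparison fell by 0.39 on the log2 scale (adjusted p 1.99e-11).

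Of 27 chemokine genes 3 rose and 3 fell with all libraries (8.55% and 8.46% of all genes; median 0.45, and −0.09 with library totals). Cx3cl1, fractalkine, which bile duct cells and neurons make, stood at 29.6, 19.8 and 18.6 CPM in WT and 82.3, 70.4 and 232 CPM in dnTGFB (2.48 ± 0.40, adjusted p 0.00474; 1.99 ± 0.10, adjusted p 7.09e-14). All dnTGFB libraries of Cx3cl1 were above WT, with dnTGFB 3 highest. Ccl27a, which has near-identical copies in the mouse genome (2.48 ± 0.51, adjusted p 0.00933), and Cxcl14 (1.38 ± 0.41, adjusted p 0.0429) were the other 2 that rose. The epithelial chemokine genes Cxcl5, at 11.9, 15 and 16.4 CPM in WT and 3.58, 3.71 and 0.587 CPM in dnTGFB (−2.22 ± 0.32, adjusted p 0.00407), and Ccl20 fell, and so did Cxcl13, which attracts B cells (−0.92 ± 0.23, adjusted p 0.0197). Ccl2, which attracts monocytes, stood at 78.4, 28.7 and 27.8 CPM in WT and 126, 131 and 17.6 CPM in dnTGFB and Cxcl1, which attracts neutrophils, at 511, 296 and 299 CPM in WT and 646, 584 and 45.2 CPM in dnTGFB. These rose without WT 1 and dnTGFB 3 (2.18 ± 0.07 and 1.05 ± 0.05, adjusted p 5.97e-17 and 1.89e-14). In that comparison 18 of the 27 chemokine genes rose and 5 fell (median 1.1; 22.9% and 25.5% of all genes).

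Of 28 cytokine and receptor genes 1 rose and 2 fell with all libraries, below the share of all genes (8.55% and 8.46%). Without WT 1 and dnTGFB 3, 17 rose and 5 fell (median 0.61; 22.9% and 25.5% of all genes). Lta, lymphotoxin alpha, stood at 1.22, 1.87 and 1.37 CPM in WT and had no count in the 3 dnTGFB libraries, where 3 counts over the group are 0.142 CPM, so that it was at least 10.5-fold lower (adjusted p 0.00472). Its partner Ltb fell from 19.5, 28.2 and 27.8 CPM to 8.65, 14.4 and 2.94 CPM (−1.40 ± 0.34, adjusted p 0.0196). Il34, a ligand of the macrophage growth factor receptor, rose (0.89 ± 0.26, adjusted p 0.0371). Of 17 checkpoint and regulatory genes 1 rose and 1 fell with all libraries, both under the share of all genes (8.55% and 8.46%). Without WT 1 and dnTGFB 3, 8 rose and 1 fell (median 0.76; 22.9% and 25.5% of all genes). The gene that rose with all libraries was Tox, a factor of exhausted T cells (1.43 ± 0.43, adjusted p 0.0418; 0.60 ± 0.25, adjusted p 0.0552 in the 2-against-2 comparison). Vsir, which encodes the checkpoint VISTA, fell, at 81.6, 109 and 117 CPM in WT and 49.5, 44.8 and 20.6 CPM in dnTGFB (−1.39 ± 0.26, adjusted p 0.00683). Cd274, a checkpoint ligand gene, stood at 48.2, 38.2 and 37.5 CPM in WT and 65.3, 66.8 and 9.98 CPM in dnTGFB and rose in the 2-against-2 comparison (0.80 ± 0.08, adjusted p 2.96e-08).

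Matrix genes moved with the library order of the hepatocyte genes. Of 29 collagen and matrix genes 0 passed with all libraries (median 0.53, and −0.05 with library totals), and 24 rose and 2 fell without WT 1 and dnTGFB 3 (median 1.25; 22.9% and 25.5% of all genes). Of the 29 there were 4 at an unadjusted p under 0.05 in edgeR, 1 higher and 0 lower by DESeq2, 22 higher and 0 lower by limma-voom. Col1a1, fibrillar collagen of scars, stood at 128, 71.2 and 69.2 CPM in WT and 187, 206 and 36.4 CPM in dnTGFB (1.48 ± 0.05, adjusted p 4.06e-17 without WT 1 and dnTGFB 3), and Fn1, fibronectin, which hepatocytes also secrete, at 392, 98.6 and 88.1 CPM in WT and 606, 544 and 60.5 CPM in dnTGFB (2.62 ± 0.05, adjusted p 5.14e-21). Of 20 stellate cell and portal fibroblast genes 2 rose and 1 fell with all libraries (8.55% and 8.46% of all genes). The 2-against-2 comparison gave 14 and 2 (median 0.9; 22.9% and 25.5% of all genes). Thy1, a portal fibroblast marker that neurons also carry, stood at 18.9, 11.4 and 14.4 CPM in WT and 49.5, 51.1 and 297 CPM in dnTGFB (3.12 ± 0.60, adjusted p 0.0075), Lhx2, a stellate cell factor, rose (0.93 ± 0.21, adjusted p 0.0136), and Acta2, smooth muscle actin, fell from 97.9, 128 and 123 CPM to 67.4, 65.4 and 39.9 CPM (−1.0 ± 0.20, adjusted p 0.00801).

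Among genes of general cell state, those of the ribosome moved most evenly. All 43 cytosolic ribosomal protein genes lay lower in the 3 dnTGFB libraries than in the 3 WT libraries (19.9% of all genes), 21 fell with all libraries (8.46%) and 43 without WT 1 and dnTGFB 3 (25.5%), with medians of −0.62 and −0.54. Rps14 stood at 922, 1105 and 1164 CPM in WT and 692, 672 and 438 CPM in dnTGFB (−0.82 ± 0.22, adjusted p 0.0274). Of 30 replication and mitosis genes 10 fell and 0 rose (8.46% and 8.55% of all genes). The 2-against-2 comparison gave 18 and 0 (25.5% and 22.9% of all genes). Mcm6, a subunit of the replicative helicase, ran at 38.7, 44.1 and 44.3 CPM in WT and 17.1, 18.3 and 9.98 CPM in dnTGFB (−1.43 ± 0.19, adjusted p 0.00335), and Aurkb, a mitotic kinase, fell by 1.85 on the log2 scale (adjusted p 0.0145). Of 16 heat shock genes 4 fell (8.46% of all genes), led by the small chaperone gene Hspb1, at 247, 399.9 and 402 CPM in WT and 147, 145 and 55.8 CPM in dnTGFB (−1.58 ± 0.33, adjusted p 0.00947), and Hspb8 rose (1.47 ± 0.44, adjusted p 0.0409). In the 2-against-2 comparison 13 of the 16 fell and 1 rose (25.5% and 22.9% of all genes).

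Mitochondrially encoded genes repeated the library shares. mt-Co1, a subunit of cytochrome c oxidase, stood at 282900, 38310 and 39060 CPM in WT and 462800, 472200 and 40530 CPM in dnTGFB (1.44 ± 0.94, adjusted p 0.297; 3.60 ± 0.02, adjusted p 6.86e-19), and 0 of 13 passed with all libraries, with 2 at an unadjusted p under 0.05 in edgeR, 0 higher and 0 lower by DESeq2, 13 higher and 0 lower by limma-voom. Without WT 1 and dnTGFB 3 all 13 mitochondrially encoded genes rose (22.9% of all genes rose). Lipid synthesis genes rose in 4 of 17 and fell in 0 with all libraries (median 0.75; 8.55% and 8.46% of all genes). The 2-against-2 comparison gave 14 and 0 (median 0.92; 22.9% and 25.5% of all genes). Fasn, fatty acid synthase, ran at 136, 40.8 and 42.2 CPM in WT and 229, 212 and 123 CPM in dnTGFB (1.37 ± 0.42, adjusted p 0.0451), and Dgat2, which completes triglyceride synthesis, at 68.1, 39.7 and 41.7 CPM in WT and 80.8, 73.9 and 152 CPM in dnTGFB (1.02 ± 0.28, adjusted p 0.0305). Acacb, an acetyl-CoA carboxylase, rose as well (1.0 ± 0.27, adjusted p 0.0306), as did its sister gene Acaca, and for Dgat2, Acaca and Acacb the groups did not overlap. Of 22 glycolysis genes 4 rose (8.55% of all genes), among them Hk2 (1.42 ± 0.42, adjusted p 0.0426) and Pgam1 (1.91 ± 0.45, adjusted p 0.0171), the latter with 51.8, 41.3 and 189.7 CPM in dnTGFB against 24.2, 24.4 and 24.7 CPM in WT. In the 2-against-2 comparison 14 of the 22 rose and 4 fell (22.9% and 25.5% of all genes).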

How the data were processed

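Raw read counts per gene, as the authors deposited them, were used for the 12 male libraries (6 of them compared here). Per the file headers, each count covers the exons of a gene whose positions the file lists on GRCm38. The aligner, the counting tool and whether strand was used are not given in these sources, so reads of antisense or overlapping genes and of near-identical copies may be shared. Symbols came from the GENCODE release 21 mouse annotation, which held 49056 of the 49315 genes, and 73 symbols named more than 1 gene. Poly(A) RNA was sequenced, per the labels' protocols.

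Genes passing edgeR's filter for low counts were tested with glmQLFTest, the quasi-likelihood test of edgeR 4.0.16 (in R 4.3.3, with TMM scaling, a robust fit and 1 mean per male group) and Benjamini-Hochberg adjustment over all 18777 genes. A gene passed at an adjusted p under 0.05. The SE is approximate, the size of the log2 fold change over √F. The code was tested on simulated data. DESeq2 1.42.0 and limma-voom 3.58.1 were alternatives. The count total was 1429218 in dnTGFB 3, where 1 count is worth about 0.587 CPM, so low genes have little precision there. Limits taken as 3 counts cover counting error only, while the SE also includes the spread between libraries.

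The comparison and the gene lists were chosen with earlier results of these data known. List counts cover tested members, which left out 1 of 16 B cell, 1 of 13 MHC class II, 1 of 13 glial, 1 of 19 mucosal, 1 of 21 complement, 1 of 15 pancreatic acinar, 2 of 29 chemokine, 3 of 31 cytokine and 3 of 31 risk-locus genes. Named genes were the 10 largest changes in each direction that passed in both comparisons without overlap at 10 CPM or more (rank by the smaller change), and, per list, up to 3 most abundant and 3 most changed members, of which a part is printed. Further list members, such as Cd8a, Ngp, Glul, Marco, Lyve1 and Cd274, were chosen after their values were seen. Promoter sequences are those of RefSeq, matched by symbol.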

Additional observations from a re-analysis of the deposited data

How the results depend on the processing

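Of 18777 genes 3195 passed, 1606 higher and 1589 lower. Leaving out 1 library at a time gave 1250 to 6653, with 695 to 2882 higher and 553 to 3771 lower. Without WT 1 and dnTGFB 3 together 9084 passed, 4294 higher and 4790 lower. With only the 6 libraries of the comparison, edgeR called 0 genes, 0 higher and 0 lower, while 3092 had an unadjusted p under 0.05. DESeq2 called 4986 (2561 and 2425) and limma-voom with quality weights 6910 (3594 and 3316). Library totals gave 5223 (1011 and 4212), and a filter of 10 CPM in 3 libraries 1700 (779 and 921). No other scaling or filter tried moved the count by over 1.5 times. The replicate number as a block left 2230 (1188 and 1042), but the libraries share only a number: deviations of same-numbered WT and dnTGFB libraries correlated at 0.27, −0.21 and 0.26, and not every library correlated best with its own number. Of 162 named genes, 2 changed sign and passed on at least 1 side of the change: Lyve1, at 0.50 without WT 1 and dnTGFB 3, and Vwf, at 0.44 without both and −0.51 to 0.38 leaving out 1 library (−0.13 with all; 0.38 without dnTGFB 3). Others changed sign without passing, such as Myh6 (2.27, and −0.74 without both). The calls lost numbered 40 without WT 2, 43 without WT 3, 18 with library totals, 19 with the block and 118 with only the 6 libraries; they were 6 without WT 1 and 4 without dnTGFB 3.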

Other observations

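In 14 protein-coding genes the 3 dnTGFB libraries held no count and the fall passed with and without WT 1 and dnTGFB 3. Chosen after their values were seen, they include Havcr1, which encodes a membrane receptor of lymphocytes and injured kidney, at 1.31, 2.04 and 1.37 CPM in WT, so that it was at least 11.1-fold lower in dnTGFB, taking 3 counts over that group as the limit. Gata1, the erythroid and megakaryocyte transcription factor, stood at 0.845, 1.45 and 1.05 CPM in WT, at least 7.85-fold above the dnTGFB limit. Rgs13, a regulator of G protein signalling in germinal centre B cells, stood at 0.845, 1.06 and 1.29 CPM in WT, at least 7.52-fold above that limit.

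Pancreatic acinar genes, the digestive enzymes of the exocrine pancreas, gave 5 higher and 1 lower of 14 tested with all libraries (8.55% and 8.46% of all genes), with a median log2 fold change of 1.70. The 2-against-2 comparison gave 11 and 1 (median 2.88; 22.9% and 25.5% of all genes). Their summed level did not show this, at 75.91, 70.82 and 78.16 CPM in WT and 77.21, 74.12 and 46.4 CPM in dnTGFB. The chymotrypsinogen gene Ctrb1 was the 1 that fell (−1.23 ± 0.17, adjusted p 0.00385 by edgeR). It was the most abundant gene of this list by CPM and so weighs most in the sum. Ctrb1 stood at 36.7, 52.2 and 58.2 CPM in WT and 21.6, 19.3 and 22.3 CPM in dnTGFB.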
